A study of Mus musculus with 8 samples.

Results

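The genes described here are 10 markers of liver macrophages, taken by name from the genes counted in whole mouse livers. The first 6, Clec4f, Timd4, Vsig4, Marco, Cd5l and Adgre1, mark resident Kupffer cells, and the other 4, Trem2, Gpnmb, Spp1 and Cd9, mark the lipid-associated macrophages of steatohepatitis. All 10 of them were found among the 49585 genes of the count table, and all 10 passed the filter on low counts, which kept 16496 genes.

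The livers came from male mice of like age fed a high-fat diet deficient in choline for 3 months, begun at 21 days of age, and the study asked how a heterozygous p53 missense mutation in hepatocytes compares with the loss of 1 Trp53 allele. Total RNA of 8 livers was sequenced. LP+/+ was the control genotype, with 3 livers that per the labels had no Alb-Cre transgene (Alb-Cre0); replicates 1 and 2 carried the floxed allele (Trp53fl/+) and replicate 3 the Trp53wm-R245W/+ allele, both unrecombined without Cre. The account of the study instead describes LP+/+ as carrying Alb-Cre and no Trp53 alteration, and the labels were followed here. LPfl/+ had 2 livers with Alb-CreTG and Trp53fl/+, in which 1 Trp53 allele is deleted. LP245/+ had 3 livers with Alb-CreTG and Trp53wm-R245W/+, in which Cre switches 1 wild-type allele to the R245W mutant. The Alb promoter drives Cre in hepatocytes and in cells derived from the same progenitors, so the macrophages themselves keep their alleles unrecombined in every group. In whole liver, fewer macrophages and less RNA of a marker per macrophage cannot be told apart.

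Kupffer cells are the macrophages that live in the liver sinusoids, where they clear bacteria, complement-coated particles, dying cells and old erythrocytes from the blood. They are seeded before birth and hold a set of genes that sinusoidal endothelial cells, stellate cells and hepatocytes impose on them through Notch, TGF-beta family and LXR signals. In fatty liver some of them are lost, and monocytes enter and take up lipid, becoming lipid-associated macrophages that express Trem2, Gpnmb, Spp1 and Cd9 and gather around steatotic or dying hepatocytes.

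The total count per liver ranged from 26304526 to 31370714. A gene with 3 counts, the limit that a count of 0 allows, would lie at 0.0956 to 0.114 CPM, the usual scale of counts relative to the library total, and the lowest count of any marker was 13. Cdkn1a, a direct p53 target, stood at 4.85 to 6.62 CPM in LP+/+, 2.65 to 3.53 CPM in LPfl/+ and 0.514 to 0.966 CPM in LP245/+. The study reported this order of Cdkn1a from the same livers, so it is no separate check of the labels. Trp53 itself was lower in both LPfl/+ livers (4.48 and 6.28 CPM) than in the 3 LP+/+ livers (7.11 to 9.06 CPM), the order that the label of a deleted allele gives. In LP245/+ Trp53 was at 6.80 to 11.2 CPM, overlapping LP+/+. The 6 hepatocyte markers summed to 100492 to 146785 CPM over the livers, and the marker lists of macrophages were detected in every liver. The library numbers in the labels fall in 2 series. The first holds the 3 LP245/+ livers with LP+/+ replicates 2 and 3, and the second holds both LPfl/+ livers with LP+/+ replicate 1, so LP245/+ and LPfl/+ livers share no series and their difference cannot be told apart from a difference between series.

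The promoters of Clec4f, Vsig4 and Cd5l are shown because these 3 resident genes had the highest levels per length of the set. Each runs from 250 bases before the RefSeq start to 50 bases after it (GRCm38.p6), for Clec4f at chr6:83656067-83656366 on the minus strand, for Vsig4 at chrX:96293389-96293688 on the minus strand and for Cd5l at chr3:87357631-87357930 on the plus strand. Capitals mark GAGGAA, the core bound by the myeloid factor encoded by Spi1, and TGCTGA, a MAF half-site, on either strand (TTCCTC and TCAGCA on the other).
Clec4f: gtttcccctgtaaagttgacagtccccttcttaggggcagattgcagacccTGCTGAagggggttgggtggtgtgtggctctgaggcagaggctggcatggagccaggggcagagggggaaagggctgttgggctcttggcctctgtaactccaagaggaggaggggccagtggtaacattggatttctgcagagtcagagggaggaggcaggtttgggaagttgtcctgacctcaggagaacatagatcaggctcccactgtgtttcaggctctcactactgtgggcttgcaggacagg
Vsig4: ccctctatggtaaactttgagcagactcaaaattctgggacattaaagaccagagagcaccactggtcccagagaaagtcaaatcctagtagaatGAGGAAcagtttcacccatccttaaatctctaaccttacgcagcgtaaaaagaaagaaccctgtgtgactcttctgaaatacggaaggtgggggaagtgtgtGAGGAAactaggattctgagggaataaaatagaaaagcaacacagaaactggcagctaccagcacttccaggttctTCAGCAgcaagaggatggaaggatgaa
Cd5l: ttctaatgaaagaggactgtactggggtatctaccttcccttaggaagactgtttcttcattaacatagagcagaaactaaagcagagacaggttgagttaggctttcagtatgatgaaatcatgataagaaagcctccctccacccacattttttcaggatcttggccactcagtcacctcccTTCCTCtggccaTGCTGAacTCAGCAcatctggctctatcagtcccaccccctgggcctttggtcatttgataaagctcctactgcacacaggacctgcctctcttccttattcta
TGCTGA was found in all 3 of these windows, beginning at position -199 relative to the start in Clec4f, at 24 in Vsig4 and at -54 and -46 in Cd5l. Windows were at hand for 9 of the 10 markers; Adgre1 had none. Of these 9, TGCTGA was in 4 (Clec4f, Timd4, Vsig4 and Cd5l), against 19.5% of 32851 promoter windows of the same length, and GAGGAA was in 5 (Vsig4, Marco, Cd5l, Trem2 and Spp1), against 28.3%. The nuclear receptor half-site AGGTCA was in 3 (Clec4f, Timd4 and Trem2), against 16.3%, and the E-box CACGTG in 0, against 7.15%. These motifs were chosen by their names after the results were known, and a match describes letters in a window and no bound site.

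Per length, the resident markers Cd5l, Clec4f and Vsig4 were the highest of the set, Timd4 and Marco were well below them, and the lipid-associated markers spread over a wide range. In RPKM, which is CPM divided by the length of annotated exon in kilobases, the mean over the 8 livers was 50.2 for Cd5l, 41.6 for Clec4f, 23.8 for Vsig4, 15.3 for Spp1, 9.64 for Adgre1, 4.44 for Cd9, 3.90 for Timd4, 3.83 for Marco, 0.216 for Trem2 and 0.183 for Gpnmb. The ranges of neighbours in this order overlapped for Cd5l and Clec4f, for Vsig4 and Spp1, for Spp1 and Adgre1, for Cd9, Timd4 and Marco, and for Trem2 and Gpnmb. They were separate between Clec4f, whose lowest liver was at 34.3 RPKM, and Vsig4, whose highest was at 30.2 RPKM, between Adgre1 (lowest 7.11 RPKM) and Cd9 (highest 5.74 RPKM), and between Marco (lowest 2.19 RPKM) and Trem2 (highest 0.327 RPKM). Within each of the 8 livers Cd5l was above Clec4f and Spp1 was above Adgre1.

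The union of annotated exons of Trem2 and Gpnmb is longer than their transcript with the longest coding sequence, which lowers their level per length. Per length of the transcript with the longest coding sequence, the means were 1.01 RPKM for Trem2, 0.322 RPKM for Gpnmb and 7.38 RPKM for Cd9, and the order of the 10 genes was the same, but Cd9, then at up to 9.56 RPKM, overlapped Adgre1. On either length Trem2 and Gpnmb, the markers that single out lipid-associated macrophages best, were the lowest of the set, with 17 to 44 counts per liver for Trem2 and 13 to 61 for Gpnmb. Spp1 and Cd9 are also made by cholangiocytes and other liver cells, so their higher levels do not count lipid-associated macrophages alone. The 6 cholangiocyte markers summed to 4.08 to 7.76 CPM over the 8 livers, and their part in the levels of Spp1 and Cd9 was not tested.

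**Figure D1:**
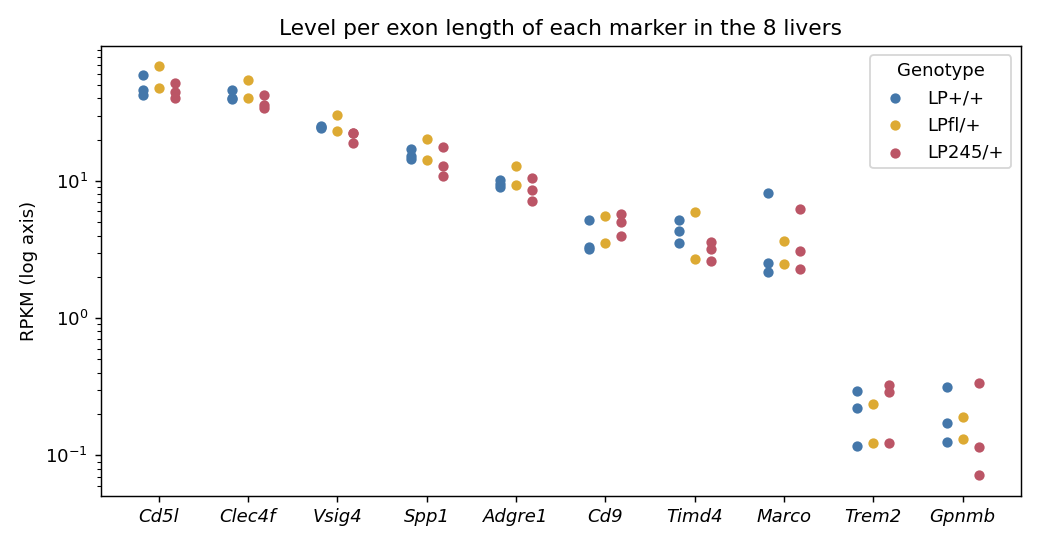
Level of each marker per length of annotated exon, in RPKM on a log axis, with 1 point per liver coloured by genotype and genes ordered by their mean. Cd5l and Clec4f lie highest, at means of 50.2 and 41.6 RPKM, and Trem2 and Gpnmb lowest, at 0.216 and 0.183 RPKM, with the 3 genotypes overlapping in most genes.

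In GRCm38, Clec4f (ENSMUSG00000014542.3, chr6:83644542-83656187, minus strand) encodes a C-type lectin that in the mouse liver is made almost only by Kupffer cells. It was at 99.1, 114 and 97.7 CPM in LP+/+, at 134 and 99.3 CPM in LPfl/+ and at 84.6, 89.1 and 104 CPM in LP245/+. The means were 104 ± 9.27 (SD, n = 3), 117 ± 24.8 (n = 2) and 92.6 ± 10.1 CPM (n = 3). LPfl/+ replicate 1 stood above all other livers, LP245/+ replicates 1 and 2 below them, and each pair of genotypes overlapped. The log2 fold change was -0.16 ± 0.14 (SE) in LP245/+ relative to LP+/+, with a 95% interval of -0.47 to 0.15, and -0.34 ± 0.15 relative to LPfl/+, with an interval of -0.68 to 0.01 (adjusted p = 0.880 and 0.584, edgeR's quasi-likelihood test). The latter was -0.10 without LPfl/+ replicate 1 and -0.53 without LPfl/+ replicate 2.

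Timd4 (ENSMUSG00000055546.6, chr11:46810800-46844332, plus strand) encodes TIM-4, a receptor for phosphatidylserine on dying cells that is held by Kupffer cells of embryonic origin and lacking on those newly made from monocytes. Its values were 9.41, 7.61 and 11.4 CPM in LP+/+, 12.9 and 5.89 CPM in LPfl/+ and 7.86, 5.67 and 6.98 CPM in LP245/+. The 2 LPfl/+ livers held the highest and the second lowest value of all 8, and the LP245/+ livers lay within or below the LP+/+ range, with an overlap at LP+/+ replicate 2. The mean was 6.84 ± 1.10 CPM in LP245/+ against 9.47 ± 1.89 CPM in LP+/+ (SD, n = 3 each), a log2 fold change of -0.47 ± 0.27 with an interval of -1.08 to 0.14 (adjusted p = 0.837, edgeR), the resident marker furthest below LP+/+ in LP245/+.

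Vsig4 (ENSMUSG00000044206.3, chrX:96247203-96293438, minus strand) encodes CRIg, the receptor with which Kupffer cells bind particles coated with complement C3 fragments. It was at 36.5, 35.9 and 37.6 CPM in LP+/+, at 44.8 and 34.2 CPM in LPfl/+ and at 27.9, 33.2 and 33.0 CPM in LP245/+. All 3 LP245/+ livers were below all 3 LP+/+ livers and both LPfl/+ livers, and Vsig4 was the 1 marker of the 10 whose groups did not overlap in those comparisons. The log2 fold change was -0.22 ± 0.12 relative to LP+/+ (interval -0.49 to 0.04, adjusted p = 0.831) and -0.33 ± 0.13 relative to LPfl/+ (interval -0.62 to -0.04, adjusted p = 0.536) in edgeR's test. By edgeR the unadjusted p of the second was 0.0298. Of all genes tested, 5.08% lay below LP+/+ without overlap in LP245/+ and 13.3% below LPfl/+, so 1 of 10 markers is close to the share of all genes. An exact permutation test gave p = 0.1 for both pairs, the smallest that groups of 3 and 3, or of 3 and 2, allow. Without LPfl/+ replicate 1 the log2 fold change of Vsig4 in LP245/+ relative to LPfl/+ was -0.12.

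Cd5l (ENSMUSG00000015854.7, chr3:87357881-87371073, plus strand) encodes a secreted scavenger protein, also called apoptosis inhibitor of macrophages, that circulates with IgM. Its values were 86.9, 121 and 93.7 CPM in LP+/+, 139 and 97.6 CPM in LPfl/+ and 82.1, 105 and 91.3 CPM in LP245/+. LPfl/+ replicate 1 was again the highest liver and LP245/+ replicate 1 the lowest, and the genotypes overlapped. The log2 fold change was -0.11 ± 0.17 in LP245/+ relative to LP+/+ (interval -0.50 to 0.27), 0.24 ± 0.19 in LPfl/+ relative to LP+/+ (interval -0.19 to 0.66) and -0.35 ± 0.19 in LP245/+ relative to LPfl/+ (interval -0.78 to 0.08).

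Adgre1 (ENSMUSG00000004730.14, chr17:57358691-57483527, plus strand) encodes F4/80, an adhesion receptor carried by most mouse tissue macrophages. It was at 29.4, 33.0 and 30.8 CPM in LP+/+, at 41.3 and 30.3 CPM in LPfl/+ and at 23.0, 34.0 and 27.8 CPM in LP245/+. The highest and lowest livers were the same as for Cd5l, with overlapping genotypes. The log2 fold change was -0.14 ± 0.16 in LP245/+ relative to LP+/+ (interval -0.49 to 0.21) and -0.34 ± 0.17 relative to LPfl/+ (interval -0.73 to 0.05). Without LPfl/+ replicate 1 the difference between LP245/+ and LPfl/+ was -0.10 for Adgre1 and -0.07 for Cd5l, and without LPfl/+ replicate 2 it was -0.54 and -0.58.

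Marco (ENSMUSG00000026390.7, chr1:120474538-120505024, minus strand) encodes a scavenger receptor for bacteria and modified lipoproteins, found mainly on Kupffer cells near the portal tracts. Its values were 4.21, 4.88 and 15.8 CPM in LP+/+, 4.76 and 7.03 CPM in LPfl/+ and 5.91, 12.1 and 4.37 CPM in LP245/+. LP+/+ replicate 3 and LP245/+ replicate 2 stood apart above the other 6 livers. Its highest liver was 3.75-fold above its lowest, against 1.59-fold for Clec4f. The within-genotype SD of Marco was 0.83 on the log2 scale, above that of 96.7% of the genes tested, for which the median was 0.22. The coefficient of variation over the 8 livers was 57.8%, where counting error alone gives 6.87%. The log2 fold change in LP245/+ relative to LP+/+ was -0.16 ± 0.51 with an interval of -1.31 to 0.99, which includes a change of -1. It ran from -0.69 without LP245/+ replicate 2 to 0.70 without LP+/+ replicate 3.

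**Figure D2:**
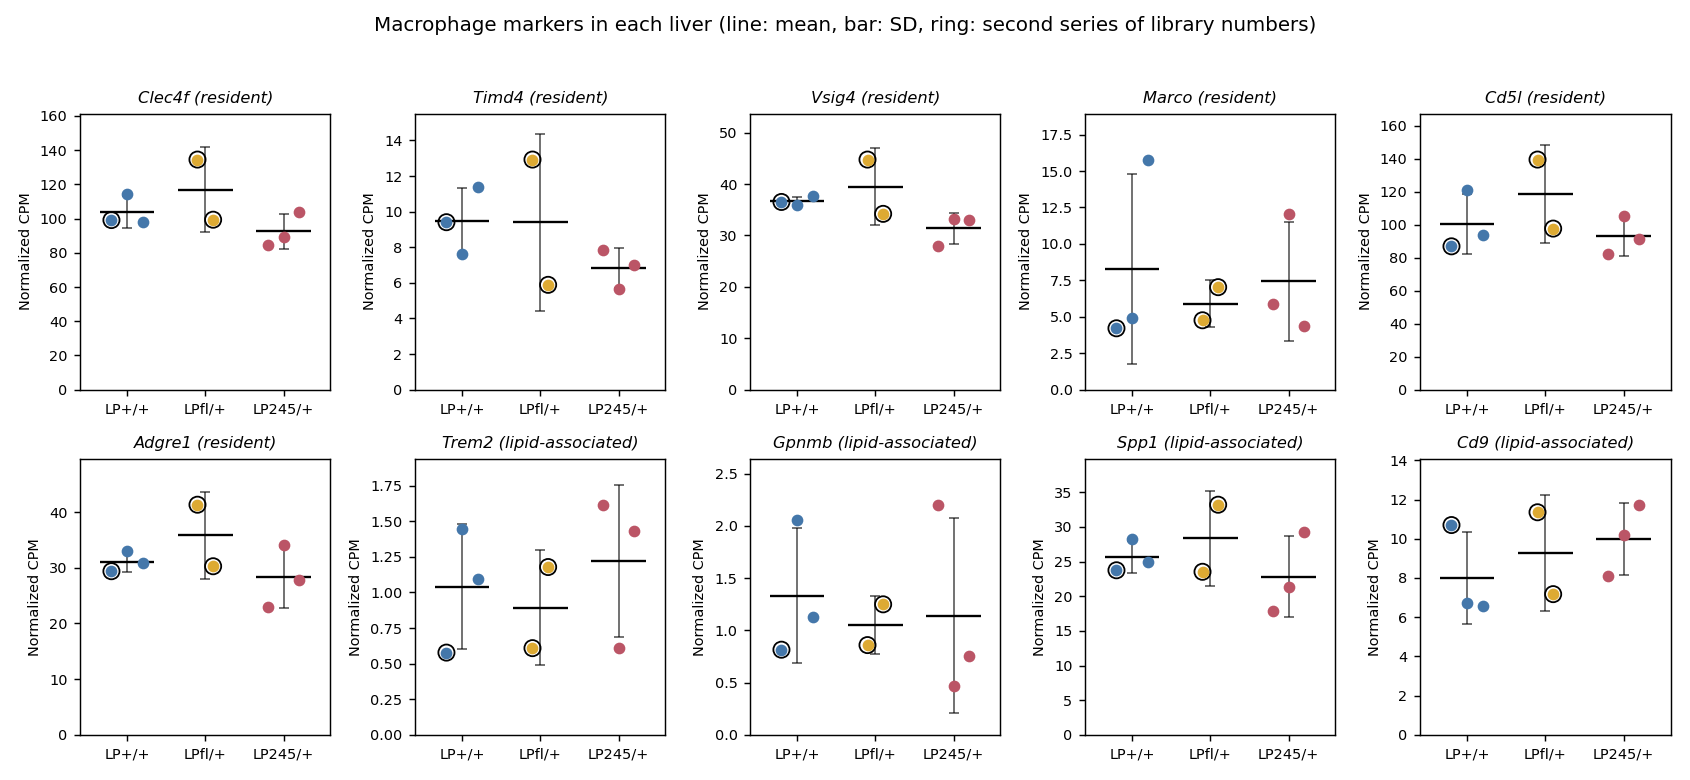
Normalized CPM of the 10 markers in each of the 8 livers, by genotype, with the mean as a line, the SD as a bar and a ring around livers of the second series of library numbers. LPfl/+ replicate 1 is the highest liver for Clec4f, Timd4, Vsig4, Cd5l and Adgre1, while Marco is high in 1 LP+/+ liver (15.8 CPM) and 1 LP245/+ liver (12.1 CPM).

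Among the lipid-associated markers, Trem2 (ENSMUSG00000023992.14, chr17:48346401-48354147, plus strand) encodes a lipid receptor that signals through the adaptor TYROBP. It was at 0.577, 1.45 and 1.09 CPM in LP+/+, at 0.609 and 1.18 CPM in LPfl/+ and at 1.62, 0.610 and 1.43 CPM in LP245/+. In each genotype 1 liver held 17 counts and every other liver held 33 or more. The log2 fold change in LP245/+ relative to LP+/+ was 0.23 ± 0.45 with an interval of -0.77 to 1.22 (adjusted p = 0.956, edgeR).

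Gpnmb (ENSMUSG00000029816.10, chr6:49036546-49070929, plus strand) encodes a transmembrane glycoprotein of macrophages loaded with lysosomal lipid. Its values were 0.815, 2.05 and 1.13 CPM in LP+/+, 0.859 and 1.25 CPM in LPfl/+ and 2.20, 0.467 and 0.751 CPM in LP245/+. The highest and the lowest of the 8 livers were both LP245/+, 4.72-fold apart, and the log2 fold change relative to LP+/+ was -0.23 ± 0.54 (interval -1.44 to 0.98). Gpnmb and Trem2 were both high in LP+/+ replicate 2 and LP245/+ replicate 1 and both low in LP245/+ replicate 2. Their within-genotype SDs of 0.81 and 0.66 on the log2 scale were above those of 96.4% and 93.3% of the genes tested. Counting error gives a coefficient of variation of 17.1% for Gpnmb and 18.1% for Trem2, where 52.6% and 39.5% were measured.

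Spp1 (ENSMUSG00000029304.14, chr5:104435118-104441050, plus strand) encodes osteopontin, a secreted matrix and signalling protein. It was at 23.7, 28.3 and 24.9 CPM in LP+/+, at 23.5 and 33.2 CPM in LPfl/+ and at 17.9, 21.4 and 29.3 CPM in LP245/+. The genotypes overlapped, and the log2 fold change was -0.17 ± 0.19 in LP245/+ relative to LP+/+ and -0.31 ± 0.21 relative to LPfl/+ (interval -0.78 to 0.15), the latter -0.54 without LPfl/+ replicate 1 and -0.04 without LPfl/+ replicate 2. In the annotation Spp1 overlaps Gm42793 on the same strand. Cd9 (ENSMUSG00000030342.8, chr6:125460266-125494791, minus strand) encodes a tetraspanin of the cell surface. Its values were 10.7, 6.74 and 6.55 CPM in LP+/+, 11.4 and 7.18 CPM in LPfl/+ and 8.08, 10.2 and 11.7 CPM in LP245/+. LP+/+ replicate 1 stood above the other LP+/+ livers and within the LP245/+ range, and the log2 fold change in LP245/+ relative to LP+/+ was 0.32 ± 0.24 (interval -0.22 to 0.87, adjusted p = 0.856, edgeR). Cd9 overlaps Gm28809 and Gm26728 on the opposite strand.

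Of the genotype comparisons, the first gave no called marker: 0 of the 10 markers passed the cutoff, a log2 fold change of 1 or more in either direction with an adjusted p not above 0.05, in LP245/+ relative to LP+/+, where 0.00606% of all genes tested did (1 gene). In LPfl/+ relative to LP+/+ and in LP245/+ relative to LPfl/+ again 0 passed, and 0% of all genes did. At an edgeR unadjusted p below 0.05 the markers numbered 0, 0 and 1 in the 3 comparisons, where 5.93%, 6.89% and 8.51% of all genes passed (3.55% higher and 2.38% lower in the first comparison, 4.22% and 2.67% in the second, 4.07% and 4.44% in the last). DESeq2 also called 0 markers at the same cutoff in each comparison. For any difference among the 3 genotypes, the smallest edgeR p of a marker was that of Vsig4, 0.0697 (adjusted p = 0.672), and in the exact permutation test over 560 arrangements of the livers it was 0.107, also for Vsig4. Of all genes 7.79% had an unadjusted edgeR p below 0.05 for any difference and 0% an adjusted one, against 0 markers for either. In LPfl/+ relative to LP+/+ the markers without overlap numbered 0, where 24.9% of all genes were without overlap. The markers without overlap and higher in LP245/+ than in LP+/+ were 0 as well, against 6.47% of all genes, and in LP245/+ relative to LPfl/+ 1 marker was without overlap in either direction, against 25.4%.

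The intervals set what these livers could show. In LP245/+ relative to LP+/+ they lay within a log2 fold change of -0.50 to 0.27 for Clec4f, Vsig4, Cd5l and Adgre1, and those of Spp1 and Cd9 lay between -0.58 and 0.87, so that a change of 1 on the log2 scale in either direction was outside the intervals of these genes. For Timd4, Marco, Trem2 and Gpnmb such a change lay inside the interval in at least 1 direction. The median log2 fold change of the 6 resident markers was -0.16 in LP245/+ relative to LP+/+, 0.14 in LPfl/+ relative to LP+/+ and -0.34 in LP245/+ relative to LPfl/+, where the median of all genes was 0.00. All 6 were below 0 in the first of these and 5 of 6 in the last. With 1 liver left out, Marco reached 0.70 and Cd5l 0.03 in the first. The medians of the 4 lipid-associated markers were 0.03, -0.04 and 0.11, with 2, 2 and 3 of 4 above 0. Single livers moved the resident medians. Without LPfl/+ replicate 1 the median was -0.09 in LPfl/+ relative to LP+/+ and -0.08 in LP245/+ relative to LPfl/+, without LPfl/+ replicate 2 it was 0.38 and -0.54, and without LP245/+ replicate 1 it was -0.07 in LP245/+ relative to LP+/+.

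**Figure D3:**
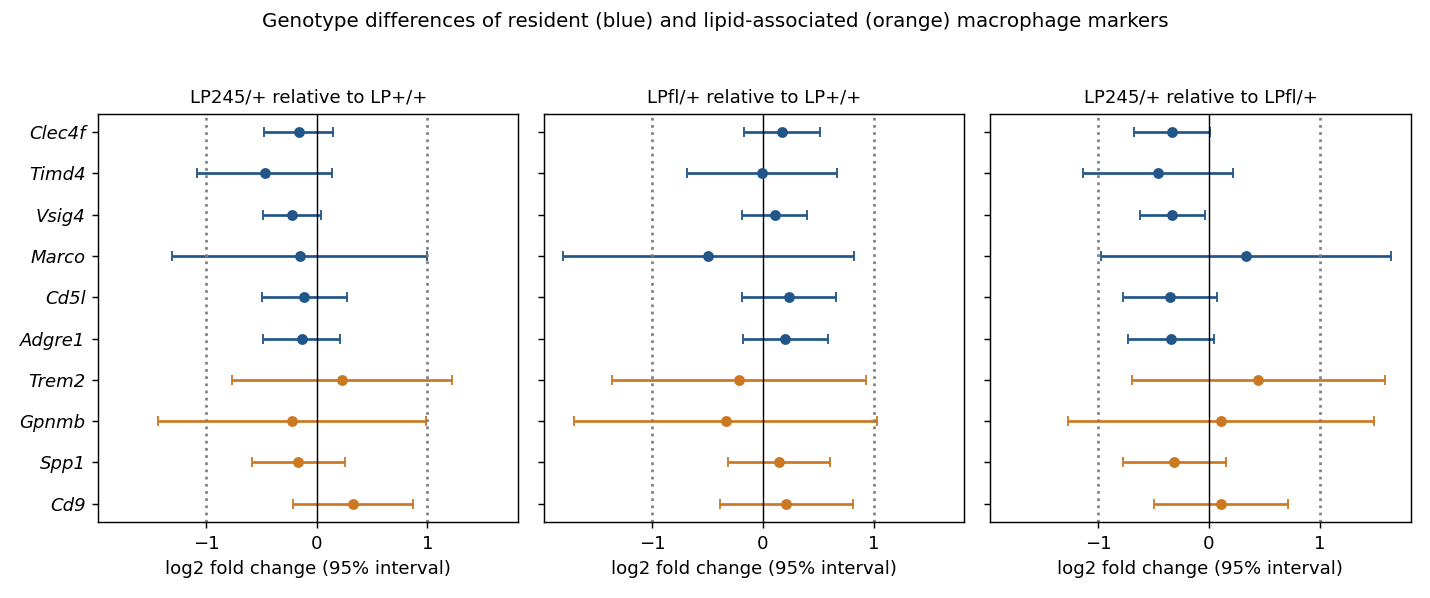
Log2 fold change of each marker in the 3 comparisons of genotypes, with 95% intervals from edgeR; resident markers are blue, lipid-associated markers orange, and dotted lines mark a change of 1 on the log2 scale. The intervals are narrow for Clec4f, Vsig4, Cd5l and Adgre1 and wide for Marco, Trem2 and Gpnmb, and apart from Vsig4 in LP245/+ relative to LPfl/+ (-0.62 to -0.04) they include 0.

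The genotypes were also compared within each series of library numbers. In the first series the means of all 6 resident markers were below those of the control livers, and the log2 ratio of the LP245/+ mean over the mean of LP+/+ replicates 2 and 3 was -0.20 for Clec4f, -0.47 for Timd4, -0.23 for Vsig4, -0.21 for Cd5l, -0.18 for Adgre1 and -0.47 for Marco. The Marco ratio rests on LP+/+ replicate 3, at 15.8 CPM against 4.88 CPM in LP+/+ replicate 2. In the second series, with LP+/+ replicate 1 as the lone control, the LPfl/+ mean was higher by 0.24 for Clec4f, 0.11 for Vsig4, 0.45 for Cd5l and 0.28 for Adgre1, while Timd4 was at 0.00 and Marco at 0.49. The control livers of the 2 series were farthest apart for Marco, Trem2, Gpnmb and Cd9. LP+/+ replicate 1 relative to the mean of LP+/+ replicates 2 and 3 was at -1.14 for Trem2, -0.96 for Gpnmb, -1.30 for Marco and 0.69 for Cd9, against -0.16 for Spp1 and -0.31 for Cd5l. With the series as a covariate the log2 fold change of Trem2 in LPfl/+ relative to LP+/+ was 0.63 in place of -0.22 and in LP245/+ relative to LPfl/+ -0.69 in place of 0.45.

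Most resident markers shared their highest liver. LPfl/+ replicate 1 was the highest of the 8 livers for 5 of 6 resident markers, all but Marco, and LP245/+ replicate 1 was below the mean of the 8 livers for all 6 of them. LPfl/+ replicate 2, of the same genotype as the highest liver, was above the mean for 1 of 6. Across the 8 livers, 45 pairs of markers were compared by Pearson's r of log2 CPM. Cd5l and Adgre1 had the highest r, 0.905 (exact permutation p = 0.00114, BH-adjusted 0.0513), with Spearman's rho of 0.929 (permutation p = 0.00223, adjusted 0.100), and r was 0.888 without the 2 livers farthest from the median of Cd5l. In all, 7 pairs had a permutation p below 0.05 for r, and 0 did after adjustment. Clec4f and Vsig4 had an r of 0.849 (permutation p = 0.0130, adjusted 0.181; rho 0.500, permutation p = 0.216), which fell to 0.235 without the 2 farthest livers, so that relation rests on them. Other resident pairs fell too when the 2 livers farthest for the first gene were left out. The r went from 0.882 to 0.064 for Vsig4 and Adgre1 and from 0.829 to 0.394 for Clec4f and Cd5l. It went from 0.762 to -0.18 for Clec4f and Adgre1 and from 0.740 to -0.07 for Vsig4 and Cd5l. Trem2 and Gpnmb had an r of 0.731 (permutation p = 0.0420, adjusted 0.270; rho 0.643, permutation p = 0.0962), and 0.797 without the 2 farthest livers. In the first series (5 livers) r was 0.853 for Cd5l and Adgre1, 0.674 for Clec4f and Vsig4 and 0.799 for Trem2 and Gpnmb. These values were given no test, and the second series, with 3 livers, is too small for a correlation.

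**Figure D4:**
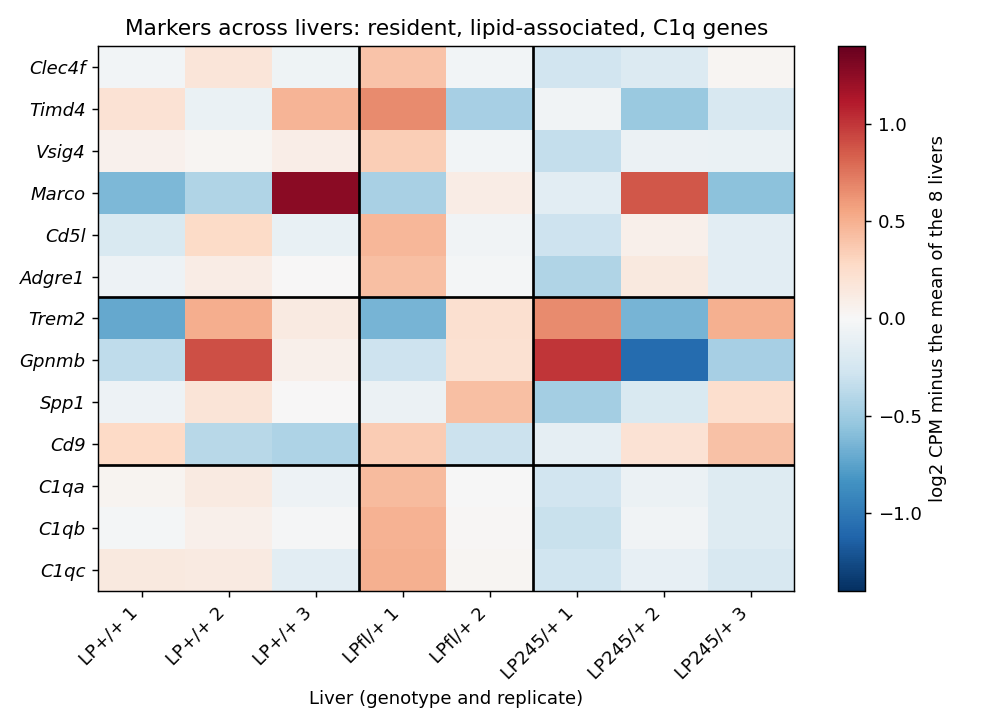
Log2 CPM of each marker in each liver minus its mean over the 8 livers, with the resident markers on top, the lipid-associated markers in the middle and the C1q genes below. LPfl/+ replicate 1 is red for all resident markers but Marco and for C1qa, C1qb and C1qc, LP245/+ replicate 1 is blue for the resident markers, and the lipid-associated markers follow another order of livers.

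The other Kupffer cell genes, which carry complement, iron and lipid functions of these cells, were followed as a list of 20. None passed the cutoff in edgeR's test in any comparison. At an edgeR unadjusted p below 0.05, 0 were higher and 1 lower in LP245/+ relative to LP+/+, 1 higher and 1 lower in LPfl/+ relative to LP+/+, and 0 higher and 6 lower in LP245/+ relative to LPfl/+, where 4.44% of all genes were lower. The median log2 fold changes of the list were -0.15, 0.10 and -0.16. Spic, the transcription factor of macrophages that recycle heme iron, had the smallest p. It was at 1.70, 1.35 and 1.72 CPM in LP+/+, at 2.65 and 2.18 CPM in LPfl/+ and at 1.43, 1.08 and 1.04 CPM in LP245/+. Both LPfl/+ livers lay above all others, and the log2 fold change in LP245/+ relative to LPfl/+ was -1.03 ± 0.25 (adjusted p = 0.362 in edgeR and 0.160 in DESeq2).

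C1qb and C1qc encode chains of the complement starter C1q, which macrophages make. C1qb was at 37.8, 40.5 and 38.1 CPM in LP+/+, at 53.9 and 38.8 CPM in LPfl/+ and at 30.9, 37.3 and 33.9 CPM in LP245/+, with a log2 fold change of -0.45 ± 0.14 in LP245/+ relative to LPfl/+ (adjusted p = 0.440, edgeR). C1qc had a log2 fold change of -0.49 ± 0.15 in the same comparison (adjusted p = 0.424). For both, as for Vsig4, LPfl/+ replicate 1 was the highest liver and LP245/+ replicate 1 the lowest. Without LPfl/+ replicate 1 the log2 fold changes were -0.19 for C1qb and -0.23 for C1qc. Cd163, the receptor that takes up haemoglobin bound to haptoglobin, was at 21.0, 27.7 and 21.8 CPM in LP+/+ and at 16.8, 16.1 and 19.6 CPM in LP245/+, with all LP245/+ livers below the LP+/+ livers and a log2 fold change of -0.43 ± 0.14 (adjusted p = 0.795, edgeR). Its LPfl/+ livers, at 19.7 and 16.2 CPM, lay with those of LP245/+, unlike Clec4f, Vsig4 and Cd5l, whose LPfl/+ means were above LP+/+. Those higher means rested on LPfl/+ replicate 1, without which the log2 fold changes were -0.075 for Clec4f, -0.11 for Vsig4 and -0.056 for Cd5l.

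The list of 26 further lipid-associated and lysosomal genes held 0 past the cutoff. Some of them stood far above Trem2, whose LP+/+ mean was 1.04 CPM. The LP+/+ means were 605 CPM for Plin2, 594 CPM for Ctsb and 539 CPM for Ctsl, and the part of macrophages in such levels was not tested. In LP245/+ relative to LP+/+ 23 of 26 were below 0, with a median of -0.17, where the median of all genes was 0.00. At an edgeR unadjusted p below 0.05, 1 of 26 was lower, where 2.38% of all genes were. In LP245/+ relative to LPfl/+ 4 of 26 were lower at that level, where 4.44% of all genes were, and the median was -0.07. Ctss, a lysosomal protease of antigen-presenting cells, differed by -0.55 ± 0.21 on the log2 scale, Lgals3, the galectin of activated macrophages, by -0.54 ± 0.22 and Lpl, lipoprotein lipase, by -0.36 ± 0.15 in LP245/+ relative to LPfl/+ (edgeR adjusted p from 0.532 to 0.544). Without LPfl/+ replicate 1 the differences were -0.14 for Ctss and -0.22 for Lgals3, and without LPfl/+ replicate 2 that of Lpl was -0.21. Hexa, a lysosomal hexosaminidase, differed by -0.32 ± 0.14 in LP245/+ relative to LP+/+ (adjusted p = 0.831).

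Of the 20 macrophage lineage and growth factor receptor genes 18 were below 0 in LP245/+ relative to LP+/+, with a median of -0.14. In LP245/+ relative to LPfl/+ 16 were below 0, with a median of -0.23. The median of all genes was 0.00 in both comparisons. Past the cutoff were 0, and 1 of 20 was lower at an edgeR unadjusted p below 0.05 in each of these comparisons, where 2.38% and 4.44% of all genes were lower. Genes of a list were measured in the same livers, so their directions are not separate observations. Mpeg1, a pore-forming protein of phagosomes, differed by -0.33 ± 0.14 and Laptm5, a lysosomal protein of blood cells, by -0.29 ± 0.14 relative to LP+/+. Aif1, the IBA1 antigen of macrophages, differed by -0.55 ± 0.22 relative to LPfl/+. Csf1r, the receptor on which Kupffer cells depend, differed by -0.28 in LP245/+ relative to LP+/+ (interval -0.68 to 0.12).

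Monocytes and recruited macrophages were followed by 15 genes, of which 12 were tested. In edgeR 0 passed the cutoff, 0 had an unadjusted p below 0.05 in LP245/+ relative to LP+/+, and 5 of 12 were above 0 in LP245/+ relative to LP+/+, with a median of -0.18. Clec12a, an inhibitory lectin of myeloid cells, was at 4.92, 6.10 and 5.63 CPM in LP+/+, at 8.88 and 6.75 CPM in LPfl/+ and at 5.07, 4.85 and 4.87 CPM in LP245/+. Both LPfl/+ livers were above the other 6, with a log2 fold change of -0.66 ± 0.17 in LP245/+ relative to LPfl/+ (adjusted p = 0.362 in edgeR). Plac8, a gene of classical monocytes, differed by -0.53 ± 0.24 in the same comparison and by -0.16 without LPfl/+ replicate 1. Fn1 (0.55 ± 0.29 relative to LPfl/+) and Hp (-0.36 ± 0.20 relative to LP+/+) are made in bulk by hepatocytes as plasma fibronectin and haptoglobin.

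Signals of the niche in which Kupffer cells are kept were measured through 21 genes, of which 19 were tested. In edgeR 0 passed the cutoff in each comparison, and 1, 3 and 1 had an unadjusted p below 0.05 in LP245/+ relative to LP+/+, in LPfl/+ relative to LP+/+ and in LP245/+ relative to LPfl/+, where 5.93%, 6.89% and 8.51% of all genes had one. Bmp10, a ligand from stellate cells for the receptor Acvrl1 on Kupffer and endothelial cells, was at 6.39, 9.80 and 10.2 CPM in LP+/+, at 6.27 and 5.53 CPM in LPfl/+ and at 9.73, 9.51 and 9.37 CPM in LP245/+, and LP+/+ replicate 1, of the same series as the LPfl/+ livers, lay with them. Its log2 fold change in LP245/+ relative to LPfl/+ was 0.69 ± 0.20 (adjusted p = 0.402, edgeR). Tgfbr2, a TGF-beta receptor, differed by -0.29 ± 0.10 in LP245/+ relative to LP+/+ (adjusted p = 0.795). In LPfl/+ relative to LP+/+ Gas6, the bridging ligand of the receptors AXL and MERTK, differed by -0.51 ± 0.21 and the chemokine Cx3cl1 by -1.03 ± 0.40 (adjusted p = 0.704 for both, edgeR). Gas6 in LP+/+ replicate 1, at 29.7 CPM, was level with the LPfl/+ livers of its series, at 28.6 and 29.5 CPM, and with the library series as a covariate the difference was -0.03 for Gas6 and -1.03 for Cx3cl1.

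The summed level of the 6 resident markers was 266 to 317 CPM in LP+/+, 274 to 378 CPM in LPfl/+ and 231 to 280 CPM in LP245/+, and marker lists of other cells were summed in the same way. The 6 sinusoidal endothelial markers summed to 314 to 402 CPM in LPfl/+ and 429 to 465 CPM in LP245/+, without overlap, and to 373 to 476 CPM in LP+/+. The 5 neutrophil markers summed to 4.71 to 5.01 CPM in LPfl/+, above 3.67 to 4.31 CPM in LP+/+ and 3.38 to 4.11 CPM in LP245/+, with Ly6g at 0 in every liver. B cell markers summed to 1.75 to 1.86 CPM in LPfl/+, below 2.68 to 3.17 CPM in LP+/+ and 2.06 to 3.40 CPM in LP245/+. T cell markers summed to 3.39 to 3.65 CPM in LPfl/+, above the highest LP245/+ liver at 3.27 CPM. The LP+/+ livers, at 2.18 to 6.15 CPM, overlapped both other genotypes. Sums of hepatocyte, cholangiocyte, hepatic stellate cell and dendritic cell markers overlapped in each pair of genotypes. Of all single genes, 24.9% were without overlap in LPfl/+ relative to LP+/+ and 25.4% in LP245/+ relative to LPfl/+. The part of these cell types in the resident marker levels was not tested.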

How the data were processed

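Total RNA of 8 whole livers was made into stranded libraries and sequenced in paired reads. Per the labels and the study's methods, the authors aligned the reads with STAR to GRCm38 and deposited raw counts per gene, with 1 column per liver; the GENCODE release, STAR version and counted strand are not given in the sources used here. Groups came from the sample titles and genotypes. The labels do not say that each library is a separate animal, and p-values measure the spread between these libraries, which may in part be technical.

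Ensembl IDs were matched without their version number to GENCODE M21 for symbols, coordinates and exon lengths, and 259 of 49585 IDs had no symbol. Counts were tested with edgeR 4.0.16 (R 4.3.3): TMM normalization, filterByExpr with genotypes as groups (16496 genes kept), and the quasi-likelihood F test on all 8 livers with no covariate. The cutoff was a log2 fold change of 1 or more in either direction with a Benjamini-Hochberg p, adjusted over all genes tested, not above 0.05. The SE is the log2 fold change divided by the root of F, and intervals are at 95%. CPM use TMM library sizes, log2 CPM a prior count of 2, and RPKM the union of annotated exons. Single markers were also tested with 2-sided exact permutation tests (560 arrangements for 3 genotypes, 40320 for a correlation). Counting intervals and floors cover counting error only. The fit was tested on simulated data.

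The text names the 10 markers; from each further list up to 4 genes with the smallest edgeR p for any difference among genotypes, each in its comparison with the smallest p; the genes of nearest profile; and Trp53 and Cdkn1a. Csf1r was added after its values were seen, and 2 genes that the rule names are not reported here. Markers, lists and tests were chosen with earlier results of these data known, so no list here is independent evidence. Alternatives were DESeq2 1.42.0, its size factors, library totals, no filter, at least 10 counts in every liver, the compared genotypes alone, the library series as a covariate, a replicate block and each liver left out. Levels per length of 1 transcript were added after the data were seen. Same-numbered livers did not deviate together (correlations of deviations between -0.08 and 0.03), but with so few livers per genotype this check cannot exclude a pairing. No 2 libraries agreed within sampling noise (lowest chi-square per gene 20.0 over 28 pairs).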

Additional observations from a re-analysis of the deposited data

How the results depend on the processing

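The counts of markers past the cutoff stayed at 0 in every alternative and with each liver left out, and the smallest adjusted p of any marker was 0.360, for Spp1 in LP245/+ relative to LPfl/+ without LP245/+ replicate 3. Of 240 log2 fold changes of markers under the alternatives other than leaving out a liver, 229 kept their direction and 11 turned; the cause was not tested. With library totals Timd4 in LPfl/+ relative to LP+/+ was at 0.041. With the replicate number as a block, though no pairing of the livers is known, Timd4 in that comparison was at 0.0050 and Marco in LP245/+ relative to LP+/+ at 0.012, and the block changed no call. With the library series as a covariate, LPfl/+ relative to LP+/+ was at 0.49 for Marco, 0.63 for Trem2, 0.37 for Gpnmb and -0.21 for Cd9, LP245/+ relative to LP+/+ at -0.060 for Trem2, and LP245/+ relative to LPfl/+ at -0.96 for Marco, -0.69 for Trem2 and -0.85 for Gpnmb. The medians of the lipid-associated markers were then 0.31 in LPfl/+ relative to LP+/+ and -0.58 in LP245/+ relative to LPfl/+.

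Leaving out each liver in turn turned the direction of some markers, ranging in LPfl/+ relative to LP+/+ from -0.075 to 0.36 for Clec4f, from -0.70 to 0.43 for Timd4, from -0.11 to 0.27 for Vsig4, from -0.82 to 0.36 for Marco, from -0.056 to 0.46 for Cd5l, from -0.050 to 0.40 for Adgre1, from -0.78 to 0.17 for Trem2, from -0.65 to 0.11 for Gpnmb, from -0.14 to 0.36 for Spp1, from -0.17 to 0.49 for Cd9. In LP245/+ relative to LPfl/+ the range was from -0.91 to 0.22 for Timd4, from -0.20 to 0.65 for Marco, from -0.78 to 0.48 for Gpnmb, from -0.18 to 0.48 for Cd9. In LP245/+ relative to LP+/+ the range was from -0.69 to 0.70 for Marco, from -0.21 to 0.033 for Cd5l, from -0.059 to 0.55 for Trem2, from -1.13 to 0.22 for Gpnmb. For Clec4f, Timd4, Vsig4, Cd5l and Adgre1 the lowest value in LPfl/+ relative to LP+/+ came without LPfl/+ replicate 1 and the highest without LPfl/+ replicate 2; for Marco the highest came without LP+/+ replicate 3. The median of the resident markers ranged from -0.28 to -0.07 in LP245/+ relative to LP+/+, from -0.094 to 0.38 in LPfl/+ relative to LP+/+, from -0.54 to -0.083 in LP245/+ relative to LPfl/+. The median of the lipid-associated markers ranged from -0.14 to 0.23 in LP245/+ relative to LP+/+, from -0.39 to 0.10 in LPfl/+ relative to LP+/+, from -0.04 to 0.29 in LP245/+ relative to LPfl/+.

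The depth, 13 to 61 counts for Gpnmb and 17 to 44 for Trem2, limits what can be said of these genes, and LPfl/+ has 2 livers.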

Other observations

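For each marker, the 2 genes outside the lists with the smallest root mean square distance between centred log2 CPM profiles over the 8 livers were sought among the 16496 genes tested. The nearest to Cd5l was Themis2, an adaptor of macrophage and B cell signalling, at 0.05 on the log2 scale, where the profile of Cd5l itself has a root mean square of 0.24. Next came Trim21, a cytosolic Fc receptor, at 0.07. Timd4 was nearest to Ms4a8a, a membrane protein of the family of CD20, at 0.13 (its own 0.40), and Trem2 to Havcr2, the TIM-3 receptor of myeloid and T cells, at 0.24 (its own 0.54). Vsig4 was nearest to Plekho2 and Cadm1, Clec4f to Eef1akmt2 and Gm9833, Adgre1 to Fmo4, Spp1 to Gtf2f1 and Esm1, Cd9 to Raver2 and Thap3, Marco to Slc29a2 and Gm4211, and Gpnmb to Traf1 and Gm6225. These are nearest profiles among many genes over 8 livers, and they were given no test.

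Against the mean profile of the 5 resident markers other than Marco, C1qb ranked 3 and C1qa 4 of the 16496 genes by this distance, at 0.07 and 0.08 on the log2 scale, with Il18bp, the secreted inhibitor of IL-18, at rank 5. C1qc ranked 43, Fcgr3 50 and Fcgr1 57. Timd4, although part of that mean, ranked 6851, at 0.28 on the log2 scale. Other Kupffer cell and macrophage genes were also farther, with Csf1r at rank 1994, Cd163 at 4165, Folr2 at 6157, Siglec1 at 8688, Spic at 9514 and Marco at 15545. The 5 markers are part of that mean, and the other ranks describe these 8 livers alone.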
